A study of Mus musculus with 6 samples.

Results

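Aqp1, Tusc5, Tmem233 and Avil are 4 of the 54532 genes in the count table of sciatic nerves from Dok6-/- mice. They were selected on their levels in these same libraries, low in the 3 controls and far higher in the 3 Dok6 mutants, so the size of that difference is a description here and carries no test. The sciatic nerves were taken at postnatal day 3 from wild-type (WT) control mice and from Dok6 mutant mice, with 1 library per mouse and 3 mice per genotype. The mutants carry a germline deletion of an exon of Dok6, made with the EIIA-cre line from a floxed allele, so every tissue lacks the exon, and both genotypes share the C57BL/6 background. Dok6 encodes a docking protein of receptor tyrosine kinase signaling.

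Aqp1 encodes aquaporin-1, a water channel of erythrocytes, endothelium, choroid plexus and kidney tubules that is also made by small-diameter sensory neurons. Tusc5, now named Trarg1, encodes a membrane protein that regulates trafficking of the glucose transporter GLUT4 in adipocytes and is also transcribed in sensory neurons. Tmem233 encodes a small membrane protein of the same CD225 (dispanin) family, which modulates voltage-gated sodium channels of sensory neurons. Avil encodes advillin, an actin-binding protein of the villin family whose regulatory region is widely used to drive Cre in peripheral sensory neurons. Sensory neurons keep their cell bodies outside the nerve, in the dorsal root ganglia, and the sciatic nerve holds their axons together with motor axons, Schwann cells and the connective tissue of the nerve sheath.

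The genes lie on separate chromosomes of GRCm38 in the GENCODE M21 annotation. Aqp1 (ENSMUSG00000004655) lies on the plus strand at chr6:55336432-55348555 and has 4 exons. Tusc5 (ENSMUSG00000046275) lies on the plus strand at chr11:76679808-76698664 and has 3 exons. Tmem233 (ENSMUSG00000079278) lies on the minus strand at chr5:116038755-116083244 and also has 3 exons. Avil (ENSMUSG00000025432) lies on the plus strand at chr10:127000709-127020994 and has 20 exons in its principal transcript. The coding sequences have 807 bases for Aqp1, 519 for Tusc5, 405 for Tmem233 and 2457 for Avil, so the CD225 family pair are the shortest proteins of the group. The 3′ UTR takes up 67.0% of the Aqp1 transcript, 73.6% of the Tusc5 transcript and 81.3% of the Tmem233 transcript, but 14.3% of the principal Avil transcript. BLAST found no transcript of another gene that matched any of the 4 over 200 bases or more at an identity of 95% or higher. Avil shares 165 exon bases with Tsfm, which is transcribed from the opposite strand, and although the study's methods name a directional library kit, which marks strand, the sample labels name the kit without that word, and whether strand was used in counting is not given in the sources used here. Tsfm itself lay between 12.4 and 13.7 CPM (counts per M counts of a library, scaled by the TMM method) in the controls and between 12.4 and 19.4 CPM in the mutants.

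Because the 4 genes moved together, the 250 bases before the transcription start were read from RefSeq (GRCm38.p6), in which 3 of the 4 had an entry, and are shown 5′ to 3′ on the strand of the gene. Capitals mark the only match to the 3 short motifs searched on both strands. The motifs were TGTGGT, the core bound by Runx factors of sensory neurons, ATTAAT, a core bound by POU factors, and TAATTA, a core bound by homeodomain factors.
Aqp1 (chr6:55336049-55336298, plus strand): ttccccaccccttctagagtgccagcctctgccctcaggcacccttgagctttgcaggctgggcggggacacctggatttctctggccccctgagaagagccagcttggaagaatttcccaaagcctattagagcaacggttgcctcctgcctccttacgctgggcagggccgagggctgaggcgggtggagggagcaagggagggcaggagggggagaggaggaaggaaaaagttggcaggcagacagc
Tmem233 (chr5:116083268-116083517, minus strand): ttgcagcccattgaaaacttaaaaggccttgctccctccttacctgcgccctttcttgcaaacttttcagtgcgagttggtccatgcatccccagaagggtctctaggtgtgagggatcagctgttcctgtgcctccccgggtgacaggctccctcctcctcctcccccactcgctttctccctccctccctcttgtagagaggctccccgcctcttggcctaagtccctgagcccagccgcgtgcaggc
Avil (chr10:127000459-127000708, plus strand): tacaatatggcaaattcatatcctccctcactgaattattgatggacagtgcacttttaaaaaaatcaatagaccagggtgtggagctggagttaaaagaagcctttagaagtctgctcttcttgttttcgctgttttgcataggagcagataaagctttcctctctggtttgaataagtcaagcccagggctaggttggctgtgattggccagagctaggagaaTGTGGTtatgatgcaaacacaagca
The Avil window holds TGTGGT from 25 to 20 bases before the start. Of the 32851 windows of the same length in the table, 14.0% hold this motif on either strand, against 4.39% for ATTAAT and 4.84% for TAATTA. A match of letters is a description and not a binding site, and the windows of Aqp1 and Tmem233 hold none of the 3 sets of letters. The windows also differ in base composition, with 62.0% G and C for Aqp1, 59.6% for Tmem233 and 42.0% for Avil, against a median of 52.4% over all windows.

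The libraries held from 17699904 to 18678170 counts, and 3 counts, taken as the smallest detectable level, were worth 0.155 to 0.172 CPM. Dok6 itself lay between 11.9 and 17.8 CPM in the controls and between 5.77 and 7.25 CPM in the mutants, a count over the whole gene that does not resolve the deleted exon. Defining markers of the labelled tissue were low in the controls, since Prx, which encodes the peripheral myelin protein periaxin, lay between 3.83 and 10.3 CPM and Egr2, the transcription factor of myelinating Schwann cells, between 0.400 and 1.20 CPM. In the same controls, the 11 genes listed for central inhibitory and spinal neurons together reached 1562 to 1737 CPM, and 1358 to 1441 CPM in the mutants. The listed astrocyte genes took 1979 to 2554 CPM in the controls and 1714 to 3266 CPM in the mutants. Those of the oligodendrocyte lineage took 674 to 1990 CPM in the controls and 729 to 3561 CPM in the mutants. These levels go against the label of a peripheral nerve, and the libraries are called here by their labels. The second mutant stood apart with 330 CPM of Prx, against 28.2 CPM in mutant 1 and 18.6 CPM in mutant 3. In bulk tissue, more cells of a type and more RNA per cell cannot be told apart.

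Aqp1 was higher in every mutant than in any control. It stood at 1.49, 2.18 and 1.83 CPM in control mice 1, 2 and 3, and at 25.8, 58.9 and 42.6 CPM in mutant mice 1, 2 and 3. The genotypes did not overlap, and the lowest mutant was 11.9 times the highest control. The controls rested on 26, 38 and 32 counts, so aquaporin-1 mRNA was low but above the floor in each of them. The log2 fold change was 4.53 with a standard error of 0.33, and it was 4.22 without mutant 2. The controls spread over 1.46 times from lowest to highest and the mutants over 2.28 times.

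Tusc5 ranked the mutants in the order of Aqp1 and had still tighter controls. Its levels were 2.75, 2.58 and 2.91 CPM in the controls and 28.8, 88.0 and 66.7 CPM in the mutants. The 3 controls differed by no more than 1.13 times, within the counting intervals of one another, whereas the mutants spread over 3.05 times. The log2 fold change was 4.47 (standard error 0.40), and 4.12 without mutant 2. The means were 2.75 ± 0.168 CPM in the controls and 61.2 ± 30.0 CPM in the mutants (SD, n = 3 each).

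Tmem233 was the rarest of the group in every library and the only one at the floor in a control. It had 7, 10 and 3 counts in the controls, or 0.401, 0.573 and 0.171 CPM, and 8.49, 35.9 and 17.8 CPM in the mutants. The lowest mutant was 14.8 times the highest control, the widest gap among the 4 genes. The fitted log2 fold change of 5.74 (standard error 0.64) rests on those few control counts, and it was 5.08 without mutant 2. The 95% counting interval of control 3 reached from 0.0353 to 0.501 CPM and overlapped that of control 2, from 0.275 to 1.05 CPM.

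Avil had the highest level in the controls and the smallest fold change. Its levels were 6.25, 5.21 and 4.17 CPM in the controls and 27.9, 94.4 and 89.9 CPM in the mutants. With 73 to 109 counts, the controls lay from 24.3 to 36.3 times above the 3-count floor, so counts on the Avil gene were not near the limit of detection, although reads of the exon bases shared with Tsfm cannot be told apart if strand was not used in counting. The log2 fold change was 3.76 (standard error 0.45), and 3.50 without mutant 2. The lowest mutant was still 4.47 times the highest control. All 4 genes thus had every mutant above every control, as the choice of them required, which held for 19.5% of the 17099 genes tested, and all 4 had log2 fold changes above 2 and passed the filter on low counts.

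**Figure D1:**
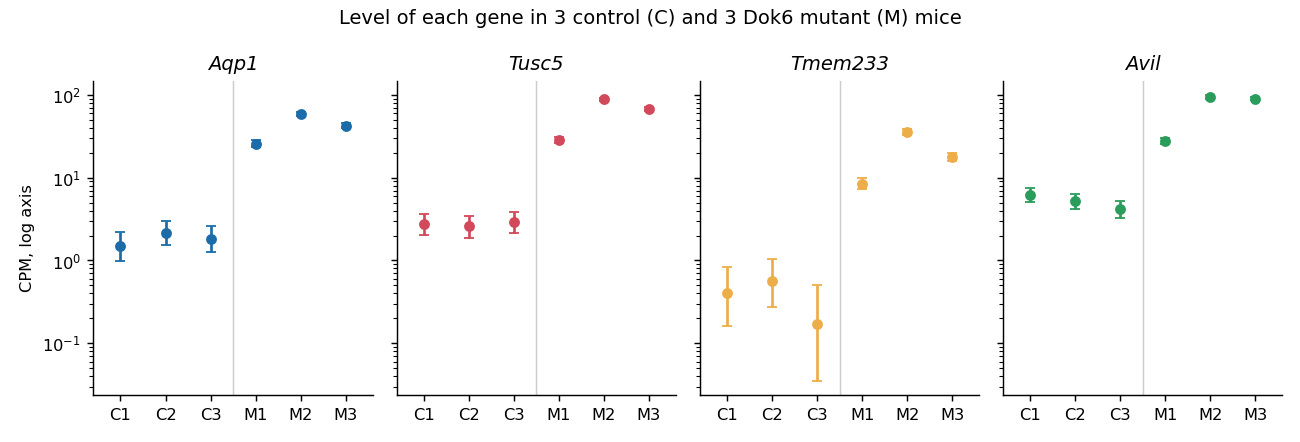
Level of Aqp1, Tusc5, Tmem233 and Avil in CPM on a log axis, for 3 control (C) and 3 Dok6 mutant (M) mice; bars are exact Poisson 95% intervals of the count. No mutant overlaps a control in any panel, mutant 1 is the lowest mutant in all 4, and Tmem233 alone comes down to the floor in a control.

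Per kilobase of gene length, which allows levels to be compared between genes, the order in the controls was Avil (1.23 to 1.84 CPM per kb), Tusc5 (0.780 to 0.882), Aqp1 (0.567 to 0.828) and Tmem233 (0.0692 to 0.231). Tusc5 and Aqp1 overlapped in the controls, and the other neighbours did not. In mutants 2 and 3 the order was the same, with Avil at 27.8 and 26.5 CPM per kb, Tusc5 at 26.7 and 20.2, Aqp1 at 22.4 and 16.2, and Tmem233 at 14.5 and 7.18. In mutant 1 the upper 3 lay close together and in another order, with Aqp1 at 9.82, Tusc5 at 8.73 and Avil at 8.21 CPM per kb. Avil made up from 42.7% to 54.1% of the per-kb sum of the 4 genes in the controls and from 27.2% to 37.8% in the mutants. Tmem233 went the other way, from 2.41% to 6.85% in the controls and from 10.2% to 15.9% in the mutants.

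The 4 genes ranked the mutant mice alike. Mutant 1 was lowest and mutant 2 highest for each of them. They differed in how far apart mutants 2 and 3 stood. Tmem233 was 2.02 times higher in mutant 2 than in mutant 3 (95% counting interval 1.77 to 2.31). The ratio was 1.38 (1.26 to 1.52) for Aqp1 and 1.32 (1.23 to 1.42) for Tusc5. Avil differed least, at 1.05 (0.981 to 1.12), and its interval includes equal levels. The interval of Tmem233 lies above those of the other 3 genes and that of Avil below them, while Aqp1 and Tusc5 overlapped. These intervals cover counting error within single libraries only, and 1 mouse stands behind each value. Against mutant 3, mutant 1 had 0.605 times the Aqp1 level and 0.310 times the Avil level, with Tusc5 (0.433) and Tmem233 (0.478) between them.

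Pearson's r of log2 CPM over the 6 libraries lay between 0.976, for Aqp1 and Avil, and 0.994, for Aqp1 and Tusc5. These 6 points share the libraries and the step between genotypes that chose the genes, so the values are given as a description.

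**Figure D2:**
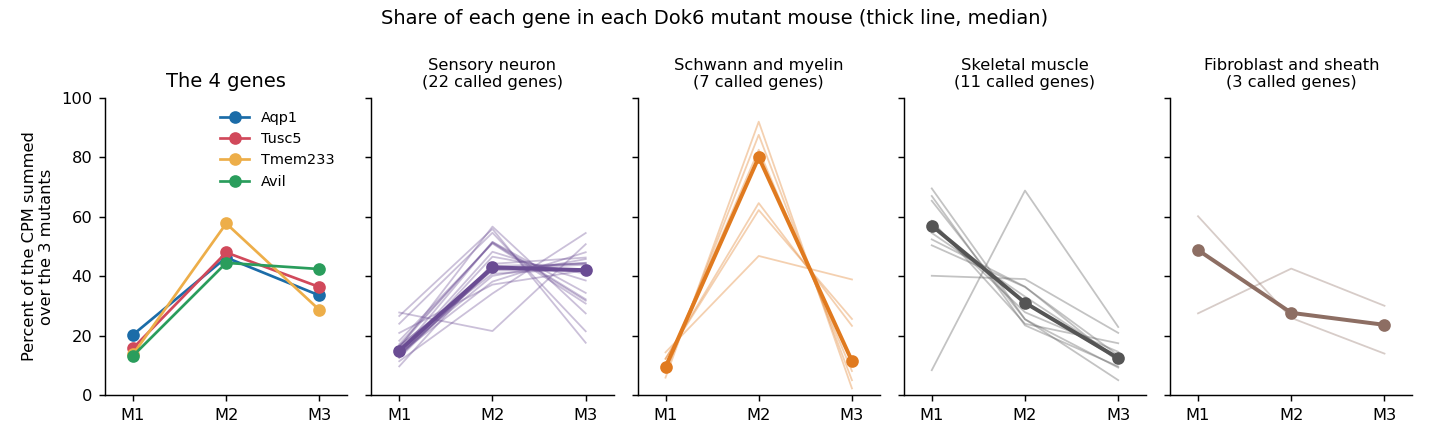
Percent of the CPM summed over the 3 Dok6 mutant mice that came from each of them (M1 to M3), for the 4 genes and for the called genes of 4 marker lists; thin lines are genes and thick lines their medians. The 4 genes, the sensory neuron genes (median 14.9%) and the Schwann cell genes (median 9.41%) are all low in mutant 1. The 4 genes and the Schwann cell genes (median 80.0%) peak in mutant 2, and the skeletal muscle genes in mutant 1 (median 57.0%). The called sensory neuron genes are highest in mutant 2 in 11 cases and in mutant 3 in 11.

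To set this profile against known sensory neuron genes, 70 other genes on 4 lists were taken from the same fit over all genes. A gene counted as called when edgeR's quasi-likelihood test gave an adjusted p-value under 0.05 and its log2 fold change was beyond 2 in either direction. Of the 60 genes that passed the filter on low counts, 22 were called higher in the mutants (36.7%) and 0 lower; 2 were lower by the adjusted p-value alone as well as by an unadjusted p-value under 0.05, and DESeq2 called 20 higher and 0 lower. Over all 17099 genes tested, 1.08% were called higher and 0.111% lower. The median log2 fold change of the 60 genes was 0.89, against 0.01 over all genes tested. In 33 of the 60 genes every mutant lay above every control (55%), against 19.5% of all genes tested. The count of 22 fell to 7 when control 2 was left out, a fit in which only 27 genes of the whole table were called in both directions against 204 with all libraries, and it was 19 without mutant 2. Without control 2, the calls fell from 5 to 2 among transcription factors, from 8 to 4 among non-peptidergic and pruriceptive genes, from 5 to 1 among peptidergic genes and from 4 to 0 among touch and position genes. Part of the listed genes were known from earlier results on these libraries, so their count is not independent evidence of direction.

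The genes were split by their mean over all 6 libraries, which a rise in the mutants itself lifts. Among the 43 listed genes with a mean under 50 CPM over all libraries, 20 were called. Of the 17 at 50 CPM or more, 2 were called, the sodium channel gene Scn10a and the mechanosensitive channel gene Piezo2. Scn10a was at most 3.09 CPM in the controls and reached the upper group through the mutants. Ntrk2, the receptor gene for BDNF, lay between 504 and 597 CPM in the controls and between 489 and 613 CPM in the mutants, and Gfra2, a GDNF family co-receptor gene, between 81.8 and 93.7 and between 80.7 and 96.9 CPM. Pou4f1, a transcription factor gene of most sensory neurons, did not pass edgeR's quasi-likelihood test (adjusted p = 0.416; log2 fold change 0.21 with a standard error of 0.17), with mutants at 62.1, 77.3 and 102 CPM against controls from 62.3 to 74.5 CPM.

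**Figure D3:**
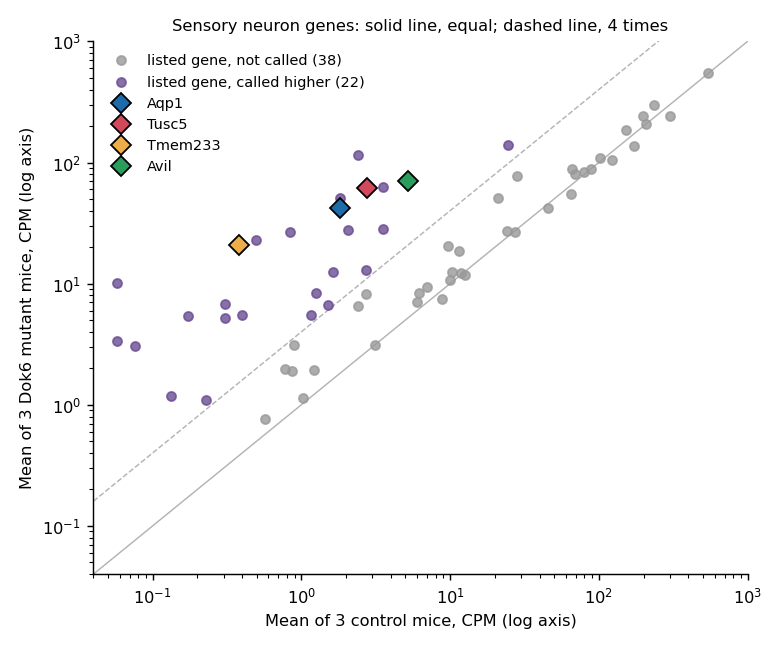
Mean CPM of the 3 Dok6 mutant mice against the mean of the 3 control mice, both on log axes, for the 60 tested sensory neuron genes and the 4 genes (diamonds). The 22 called genes lie above the dashed 4-fold line together with the diamonds, and genes above 50 CPM in the controls lie near the line of equal levels.

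Among 15 transcription factor genes tested, 5 were called higher, against 1.08% of all genes tested. Prdm12, a regulator of nociceptor development, rose from between 0.458 and 1.20 CPM in the controls to 10.1, 37.4 and 32.7 CPM in the mutants (adjusted p = 0.00588 in edgeR's quasi-likelihood test; log2 fold change 4.98 with a standard error of 0.56). Isl2, Tlx2 and Runx1 were also called. Runx1, which directs the non-peptidergic fate, stood at 1.94 to 3.32 CPM in the controls and at 6.32, 16.2 and 16.0 CPM in the mutants. Runx3, the factor of proprioceptors, was too low for the test, with at most 1 count in a control and 0.362, 1.80 and 3.12 CPM in the mutants.

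Non-peptidergic and pruriceptive neuron genes had 8 of 18 tested called higher, against 1.08% of all genes tested. Scn11a, the gene of the sodium channel Nav1.9, stood at 1.49, 2.12 and 1.83 CPM in the controls and at 27.7, 77.3 and 46.6 CPM in the mutants. Its ratio of mutant 2 to mutant 3 was 1.66 (1.52 to 1.80), against 1.38 (1.26 to 1.52) for Aqp1. Mrgprd, a receptor gene of non-peptidergic nociceptors, had at most 2 counts in a control and reached 4.87, 17.4 and 8.41 CPM. Its ratio of mutant 2 to mutant 3 was 2.06, beside 2.02 for Tmem233. Scn10a, the gene of Nav1.8, rose from at most 3.09 CPM to 45.9, 167 and 133 CPM, and P2rx3, an ATP-gated channel gene, from at most 2.35 CPM to 11.2, 35.3 and 37.3 CPM. Mrgprx1, Lpar5, Tmem45b and Htr3b were also called. The call of Lpar5 was lost in every fit that left out 1 mouse other than mutant 3.

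Of the 12 peptidergic nociceptor and thermoreceptor genes tested, 5 were called higher, against 1.08% of all genes tested. Among them were Trpv1, Gfra3, Npffr2 and Ptgir. Trpv1, the capsaicin receptor gene, stood at 0.343 to 0.458 CPM in the controls and at 2.17, 7.02 and 7.35 CPM in the mutants. Gfra3, a co-receptor gene of the GDNF family, stood at 0.742 to 2.06 CPM in the controls and at 5.18, 15.9 and 16.5 CPM in the mutants. The ratio of mutant 2 to mutant 3 was 0.955 (0.746 to 1.22) for Trpv1 and 0.966 (0.821 to 1.14) for Gfra3, and these intervals include equal levels, as that of Avil does. The interval of Ptgir, at 0.794 (0.574 to 1.09), also includes them, but that of Npffr2, at 0.424 (0.210 to 0.811), does not. Equal levels also lie within the intervals of the non-peptidergic genes P2rx3, at 0.947 (0.850 to 1.06), and Mrgprx1, at 1.01 (0.895 to 1.14). The ratio thus does not set the peptidergic list apart. The neuropeptide gene Tac1 had a log2 fold change of -0.24, with a standard error of 0.12.

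Of the 15 touch and position neuron genes tested, 4 were called higher, against 1.08% of all genes tested. They were Piezo2, Pvalb, Fam19a4 and Asic3, and 0 of these calls were left without control 2. The adjusted p-values of edgeR in that fit were 0.052, 0.134, 0.077 and 0.095. The call of Pvalb was also lost without control 1, control 3, mutant 2 or mutant 3 (adjusted p = 0.102, 0.062, 0.086 and 0.074 in edgeR), and that of Asic3 without control 1, control 3 or mutant 2 (adjusted p = 0.063, 0.067 and 0.074 in edgeR). Piezo2 rose from between 22.6 and 26.0 CPM to 69.5, 171 and 178 CPM. Ldhb and Mafa were the 2 sensory genes that were lower by the adjusted p-value alone, with log2 fold changes of -0.33 and -0.32. Over all 22 called sensory genes, mutant 1 was lowest in 19, and mutant 2 was highest in 11 and mutant 3 in 11. Mutant 1 was lowest in 54.1% of the 185 genes called higher in the whole table.

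Each of the 4 genes was then compared with the 15026 genes tested that had at least 1 CPM in every mutant library. Here r is again a description over 6 libraries that share the genotype step. The gene most like Aqp1 was Scn11a, at r = 0.999, followed by Dhx29 and Mrgprd. Tusc5 was most like Scn7a, a sodium channel gene of sensory neurons and Schwann cells, Mst1r and Chst12. Tmem233 was most like Htr3b, a serotonin receptor subunit gene, Tmem79 and Acpp, the gene of an acid phosphatase of non-peptidergic nociceptors. Avil was most like Trpv1, at r = 0.999, P2rx3 and Piezo2. The 4 genes were chosen for the step between genotypes and the level was asked of the mutants alone, so a high r restates in part which genes rose.

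The 10 genes with the highest mean r, from 0.990 to 0.994, were S100a11, Chst12, Gm13425, Cdk15, Acpp, Sytl3, Pbrm1, Gcnt2, Scn11a and Mst1r. Of these, 3 were called higher and 1 stood on the sensory neuron lists. Since r does not see the size of a difference, the list includes Pbrm1, a chromatin remodelling gene with a log2 fold change of only 0.25. By the root mean square distance between centred log2 profiles, which does see it, the 10 nearest genes included Gm13425, Scn11a, Scn7a, Pirt, Htr3b, Myo1a, Tyrp1 and Ptgir, and 2 of the 10 are shared with the first list.

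**Figure D4:**
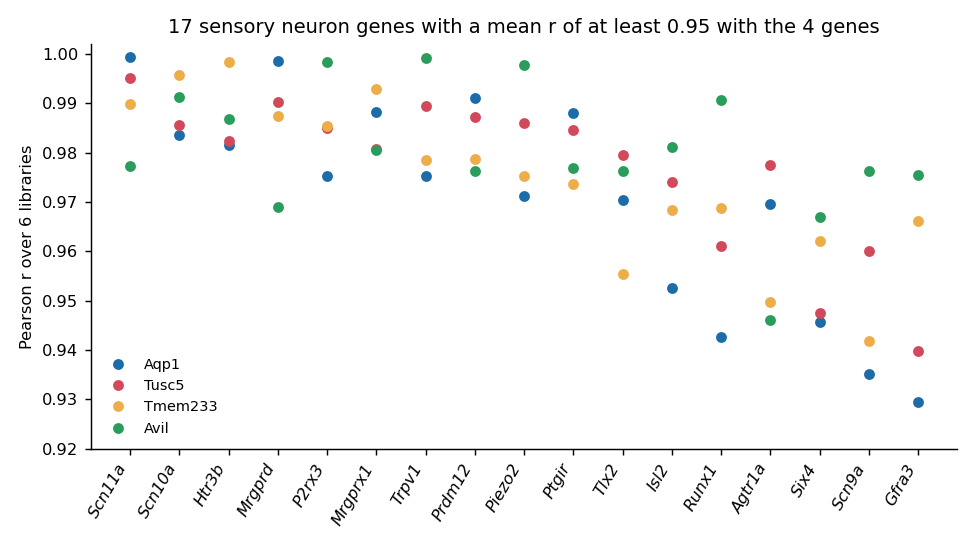
Pearson's r over the 6 libraries between each of the 4 genes (colours) and 17 of the 19 sensory neuron genes whose mean r is at least 0.95, ordered by that mean. These 19 are 34.5% of the 55 sensory neuron genes compared, and 1.94% of all genes compared had such a mean r. Aqp1 is the highest point for Scn11a and Mrgprd, Tmem233 for Htr3b and Scn10a, and Avil for Trpv1, P2rx3, Piezo2 and Runx1.

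The paralogs of the 4 genes were read in the same fit. Of 30 other aquaporin, villin and gelsolin, and CD225 genes in the table, 20 were tested and 0 were called in either direction by edgeR or by DESeq2, while 10 had an unadjusted p-value under 0.05. Over all genes tested, 1.08% were called higher, 0.111% were called lower and 33.6% had an unadjusted p-value under 0.05, so a count of 0 among 20 genes is near the background. By the adjusted p-value alone, 5 were higher, against 8.62% of all genes tested, and 1 was lower, against 6.01%. Among the aquaporins, 0 of 5 passed the adjusted p-value in edgeR, 1 was lower by an unadjusted p-value under 0.05, and DESeq2 called 0. Aqp4, the water channel of astrocytes, lay between 223 and 438 CPM in the controls and between 257 and 531 CPM in the mutants, and its genotypes overlapped. Among the villin and gelsolin genes, Gsn, Flii and Svil were higher by the adjusted p-value, with log2 fold changes of 1.19, 0.65 and 1.04. Gsn, which severs actin filaments, stood at 24.9 to 32.4 CPM in the controls and 43.9 to 79.4 CPM in the mutants. Vil1, the villin gene of epithelia, was at most 0.741 CPM in any library. Among the CD225 genes, the interferon-induced Ifitm1 and Ifitm2 were higher, with log2 fold changes of 1.24 and 0.79, and Syndig1l was lower, at -0.40. Prrt2, a brain paralog of Tusc5 and Tmem233, was at most 0.708 CPM in any library.

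**Figure D5:**
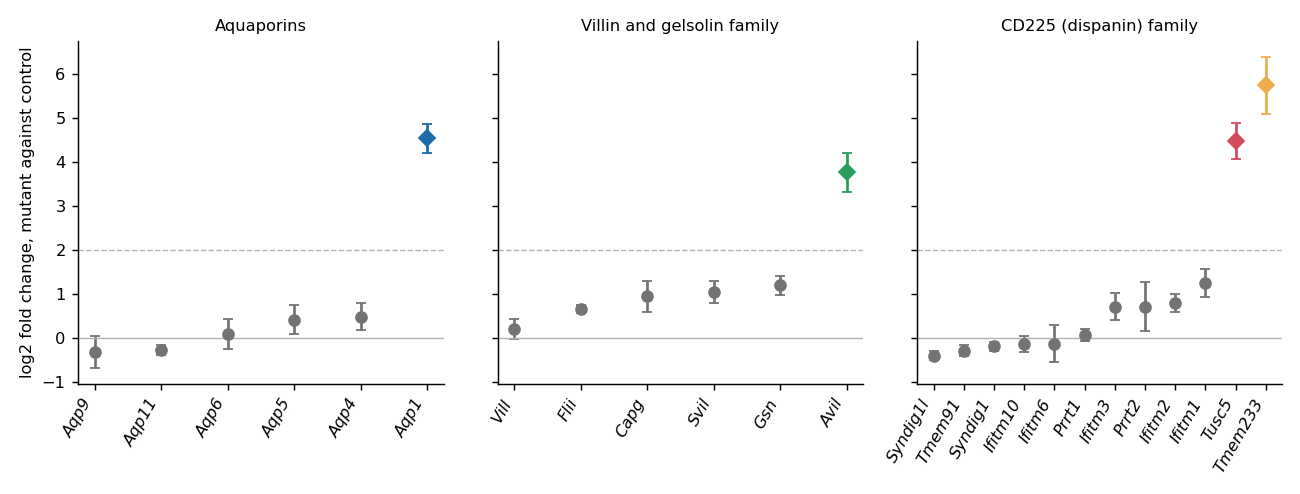
Log2 fold change of mutant against control with its standard error for the tested genes of each family, with Aqp1, Avil, Tusc5 and Tmem233 as diamonds; the dashed line is the threshold of 2. The 4 diamonds lie from 3.76 to 5.74 and their 20 paralogs from -0.40 to 1.24.

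Genes that work with the proteins were taken as further lists. Of 13 sodium channel subunit genes tested, 3 were called higher, namely Scn7a, Scn10a and Scn11a, against 1.08% of all genes tested. Scn9a, which encodes Nav1.7, rose by the adjusted p-value, from between 27.7 and 28.5 CPM to 43.2, 100 and 88.8 CPM, with a log2 fold change of 1.46. The brain subunit genes Scn1a, Scn2a, Scn3a and Scn8a had log2 fold changes between -0.31 and 0.11, and none of them passed the test. Of the 14 GLUT4 trafficking genes tested, 0 were called by edgeR or DESeq2 and 4 had an unadjusted p-value under 0.05, against 33.6% of all genes tested, and Stx4a and Snap23 were higher by the adjusted p-value with log2 fold changes of 0.65 and 0.64. Slc2a4, which encodes GLUT4 itself, did not pass the test, with a log2 fold change of 0.02 and a standard error of 0.18. It lay between 9.37 and 12.0 CPM in the controls and between 8.99 and 12.8 CPM in the mutants.

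Aqp1 and Tusc5 are also made outside the nervous system, so markers of those cells were read in the same libraries. Of 6 adipocyte genes tested, 2 were called higher, Fabp4 and Car3, against 1.08% of all genes tested. Fabp4, a fatty acid binding protein gene, was at most 0.573 CPM in the controls and stood at 8.54, 4.85 and 0.846 CPM in the mutants. Car3, a carbonic anhydrase gene, stood at 2.12 to 3.09 CPM in the controls and 7.66, 23.7 and 6.51 CPM in the mutants. The highest mutant was thus mutant 1 for Fabp4 and mutant 2, as for Tusc5, for Car3, and neither gene was called without control 2. The defining Adipoq was at most 0.229 CPM, and the 13 listed genes together took between 22.4 and 26.8 CPM in the controls and between 28.9 and 51.5 CPM in the mutants. Among red cell genes, Alas2, Hba-a1, Hba-a2 and Hbb-bs were lower by the adjusted p-value and the 11 genes found together took 548 to 845 CPM in the controls and 202 to 353 CPM in the mutants. Of the 7 red cell genes tested, 0 were called by edgeR, 5 were lower by an unadjusted p-value under 0.05, against 15.5% of all genes tested, and DESeq2 called 1 lower, and the log2 fold changes lay between -1.99 and 0.04. Of 12 endothelial genes, 0 were called by edgeR or DESeq2 and 8 were higher by an unadjusted p-value under 0.05, against 18% of all genes tested. Kdr, Tek and Emcn were higher by the adjusted p-value with log2 fold changes from 0.86 to 0.92, and its listed genes together took between 237 and 377 CPM in the controls and between 387 and 499 CPM in the mutants. Of the 10 choroid plexus genes, the defining Otx2 was at 0 in every library and Ttr at most 0.458 CPM, and the list together took 19.9 to 24.0 CPM in the controls and 24.7 to 45.9 CPM in the mutants. Of the 5 tested, 0 were called by edgeR or DESeq2 and 3 were higher by an unadjusted p-value under 0.05. Sostdc1, which encodes a secreted BMP antagonist, was higher by the adjusted p-value, with 5.67 to 7.96 CPM in the controls and 7.46, 30.1 and 22.2 CPM in the mutants, the mutant order of Aqp1. Of the 6 genes of tuft cells, a cell type that also makes advillin, 2 were tested and 0 were called by edgeR or DESeq2 or had an unadjusted p-value under 0.05, and the sum over the list was at most 6.99 CPM in any library.

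Markers of other cells of the nerve and its surroundings were read in the same way, against 1.08% of all genes tested that were called higher. Of 17 Schwann cell genes tested, 7 were called higher, all of them highest in mutant 2, and its listed genes together took between 460 and 1192 CPM in the controls and between 840 and 5426 CPM in the mutants. Of 15 skeletal muscle genes tested, 11 were called higher, 10 of them highest in mutant 1, where the 4 genes were lowest. The muscle genes together took between 44.1 and 65.1 CPM in the controls and to 784, 426 and 176 CPM in mutants 1, 2 and 3, with Tnnc2 at 0 in every library. Of 9 fibroblast and nerve sheath genes tested, 3 were called higher, and its listed genes together took between 350 and 1278 CPM in the controls and between 2175 and 3266 CPM in the mutants. Of 13 general axon and neuron genes tested, 1, the glutamate transporter gene Slc17a7, was called higher. Prph, the intermediate filament gene of peripheral neurons, was higher by the adjusted p-value, from between 116 and 165 CPM to 182, 418 and 439 CPM. Without control 2, the calls fell from 7 to 1 among Schwann cell genes, from 11 to 3 among skeletal muscle genes, from 3 to 0 among fibroblast genes and from 1 to 0 among general neuron genes. Whether the part of each cell type in the sampled tissue bears on the levels of Aqp1, Tusc5, Tmem233 and Avil was not tested.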

How the data were processed

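RNA-seq of 6 postnatal day 3 sciatic nerves (3 control, 3 Dok6 mutant mice) was analysed from the gene counts that the authors deposited, whole numbers of reads per gene without normalization, together with a length per gene. Per the labels, the build was mm10. The study's methods name a directional NEBNext library kit and the labels a NEBNext kit not called directional. The aligner, the counting tool and the strand setting of the counting are not given in the sources used here. Genes were kept by filterByExpr (17099 of 54532), scaled by TMM and compared with the quasi-likelihood test of edgeR 4.0.16 in R 4.3.3, without a block, with Benjamini-Hochberg adjustment over all genes tested. Genes were called at adjusted p-values under 0.05 with log2 fold changes beyond 2 in either direction. CPM are TMM scaled, and likeness used log2 CPM with a prior count of 2. Intervals are exact Poisson 95% intervals of a count, or counting intervals of a ratio of counts, and with floors they cover counting error only. The labels do not say that mice of a genotype came from separate litters. Total counts were 17699904 to 18678170 per library. The sexes were not distinguished. The members and the gene lists, written by hand, were chosen with earlier results of these data known. Genes named are the 4 genes, genes of the lists that were called, defining or at the ends of their range, the 10 genes most like the 4, the 3 most like each, and Dok6; some listed genes are not reported here by name. Of the identifiers, 54409 are in GENCODE M21. BLAST 2.17.0 was used for near-identical transcripts. DESeq2 1.42.0, RLE scaling, no filter, the replicate number as a block, other fold thresholds, leaving out each mouse, a prior count of 0.5, no TMM and another distance were the alternatives. The procedure was tested on simulated data.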

Additional observations from a re-analysis of the deposited data

How the results depend on the processing

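The log2 fold changes of the 4 genes kept their direction and moved by less than the spread between replicates under every alternative. Over the fits that left out 1 mouse they ranged from 4.22 to 4.79 for Aqp1, 4.12 to 4.81 for Tusc5, 5.08 to 6.14 for Tmem233 and 3.50 to 4.14 for Avil. Over all genes, 204 were called, and the count was 364 without the filter on low counts, 686 with a log2 threshold of 1, 2502 with the adjusted p-value alone and 27 to 293 on leaving out 1 mouse, the lowest without control 2. The count of called sensory neuron genes ranged from 7, without control 2, to 22 on leaving out 1 mouse, and from 20 to 30 under the other settings. The paralogs called were 0 in every fit at the fold threshold of 2, from 0 to 0 on leaving out 1 mouse, 3 at a threshold of 1 and 6 with the adjusted p-value alone. The lists of the 10 genes most alike shared 9 genes under either other log2 scale and 2 under the root mean square distance. The cause of these differences was not tested. Whether the replicate numbers pair the mice is not given, although a figure caption of the study calls the controls littermates. The deviations of same-numbered mice correlated at -0.01, -0.17 and -0.24. With 3 mice per genotype these values cannot exclude a pairing. With the replicate block, 134 genes were called over all genes, the sensory count was 20, and the fold changes of Aqp1, Tusc5, Tmem233 and Avil were 4.49, 4.35, 5.66 and 3.60. The depth limits Tmem233 most, whose controls hold 3 to 10 counts.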
